A study of Homo sapiens with 9 samples.

Results

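Knockdown of ERRα in T1 cells was compared with a non-target control across the whole transcriptome. The comparison used 6 of the 9 libraries of the series, chosen by their labels. S1, S2 and S3 form the siNC group, 3 libraries of cells that received a non-target siRNA. S4, S5 and S6 form the siERRα group, 3 libraries of cells that received an siRNA against ESRRA, the gene that encodes ERRα. All 6 came from GIST-T1, an imatinib-sensitive human cell line of gastrointestinal stromal tumor (GIST) with the genotype KIT exon 11 del560-79, were transfected with Lipofectamine in antibiotic-free medium and were harvested at 48 h. The other 3 libraries (S16, S17 and S18) came from the same line with the non-target siRNA and 50 nM imatinib, an inhibitor of KIT. They entered the fit, where they helped to estimate the spread, and are otherwise quoted only where the responses to knockdown and to the drug are set side by side. T1 is 1 cell line, 1 siRNA treatment and 1 time were sampled, and the labels do not state whether a group’s libraries were grown apart. The p-values therefore reflect library-to-library spread, which may be technical.

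ERRα is an orphan nuclear receptor, a transcription factor that works without a known natural hormone and takes its activity largely from coactivators of the PGC-1 family. It binds the sequence TNAAGGTCA, known as the ERR response element, and is best known for driving genes of mitochondrial respiration, the TCA cycle and fatty acid oxidation. An siRNA is a short RNA duplex. Its guide strand directs Argonaute proteins to a fully paired transcript, which is cut. The bases at guide positions 2 to 8, called the seed, can also pair with sites in the 3′ UTRs of other transcripts, as in a microRNA, and transcripts paired in this way are often lowered.

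ESRRA itself lies on chromosome 11 of GRCh38 (64305497 to 64316743, forward strand). Its level was 40.7, 44.7 and 40.9 CPM in S1, S2 and S3 and 1.41, 0.757 and 1.34 CPM in S4, S5 and S6, where CPM scales counts to a common library total, here normalized with TMM. The groups were far apart, and 2.77% of the control level remained, a log2 fold change of −5.18 ± 0.134 (standard error), with an adjusted p = 6.28e-15 in the quasi-likelihood test of edgeR. In what follows, 3 values given for a group are always those of S1, S2 and S3, or of S4, S5 and S6, in that order, and all levels are in this CPM unless stated otherwise. The paralogs were close to silent. ESRRB had 3 raw counts and ESRRG 2 in the 3 siNC libraries together, and both had 0 in siERRα, under the 3 counts taken here as the floor of detection. ESRRA was therefore the ERR gene that these cells expressed.

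The 6 libraries held 38408818 to 49363002 counts. Defining genes of GIST were present in each, with KIT at 1283 to 1463 CPM of the raw total and ANO1 at 384 to 411. Of the markers of other cell types, 1 of 12 immune, 3 of 10 epithelial, 5 of 8 endothelial and 2 of 11 neuron and glia genes passed the expression filter. The summed immune markers stayed between 0.443 and 1.03 CPM of the raw total, and PTPRC, the pan-leukocyte marker, had 0 counts in all 3 siERRα libraries. Other sums were higher. Epithelial markers summed to 283 to 323 CPM of the raw total, mainly from the keratin gene KRT18 (270 to 311). Neuron and glia markers summed to 44.8 to 53.2, mainly from MBP, and endothelial markers to 10.6 to 15.7, mainly from ERG. On a principal component analysis the groups parted on the first component (47.5% of the variance), while S5 and S6 lay at opposite ends of the second (19.6%, at 13.7 and −11.5). S5 differed from S4 and S6 by a chi-square of 16.3 and 13.7 per degree of freedom, against 4.3 between S4 and S6.

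Of 16976 genes tested, 2133 (12.6%) were lower and 1931 (11.4%) higher after knockdown at an adjusted p under 0.05, and the word called is used for these. Both shares are the background for every count of list members below, and several of those counts lie close to them. A differentially expressed gene (DEG) also moved by 0.5 or more on the log2 scale, which left 897 lower (5.28%) and 336 higher (1.98%). The response was thus broad and mostly small. Of the called genes, 69.7% moved by less than 0.5 on the log2 scale, 13 fell by 2 or more on that scale and 5 rose by 2 or more. Lower DEGs outnumbered higher ones among protein-coding genes (788 and 257 of 12912 tested) and among processed pseudogenes (36 and 9 of 1493). Among 2006 lncRNA genes there were 61 lower and 56 higher DEGs. The siNC and siERRα libraries did not overlap for 6553 of the genes tested (38.6%) and for 1214 of the 1233 DEGs. Separate groups were therefore common. Without S3, 1163 genes were called higher in place of 1931, and 1152 of these were among the 1931. Genes of chromosome 19 had the highest median log2 fold change of the nuclear chromosomes (0.07, 156 higher and 73 lower of 1055 tested), against 0.01 for all genes tested. Of 34 other genes tested within 500 kb of ESRRA, 2 were lower and 3 higher, with a median of 0.06.

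**Figure D1:**
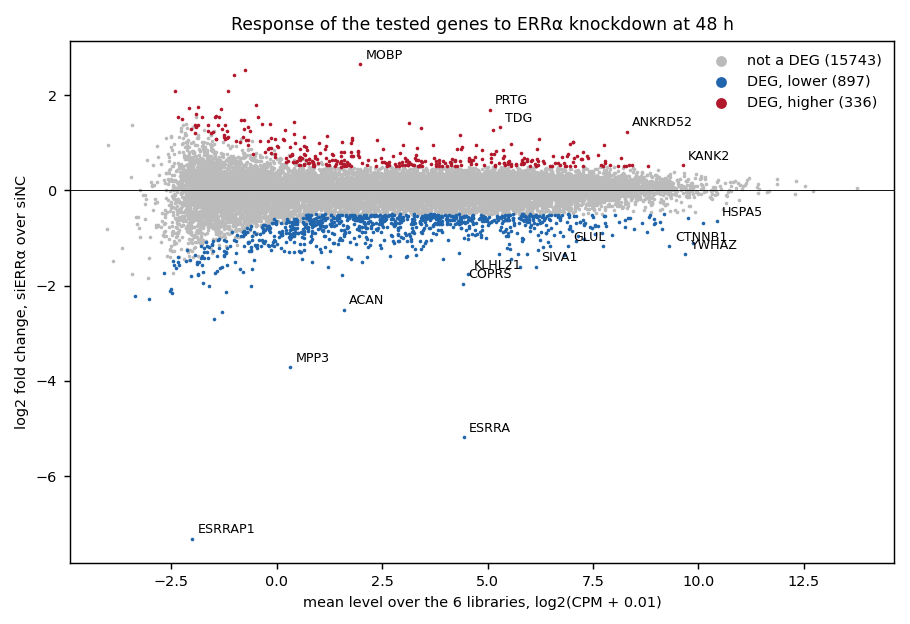
Log2 fold change of each of the 16976 genes tested (vertical axis, siERRα over siNC) against its mean level over the 6 libraries (horizontal axis, log2 of CPM plus 0.01), with lower DEGs in blue and higher DEGs in red. The 897 blue points outnumber the 336 red ones, and ESRRA stands alone at −5.18 among well-expressed genes. ESRRAP1, a processed pseudogene of ESRRA, is listed at 0 in S4, S5 and S6, so that its fitted value is no measure of its fall.

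A short sequence in the 3′ UTR went with the direction of change. Among 14453 sequences of 7 bases that were held by the 3′ UTRs of at least 200 tested genes, ATGTTCT, called the heptamer here, marked the genes with the lowest median relative to all others (a difference of −0.126 on the log2 scale), ahead of TGTTCTA (−0.0892), which overlaps it by 6 bases. Its reverse complement ranked 10388th, with a difference of 0.00111. ESRRA holds the heptamer 1 time, in its coding sequence, and not in its 3′ UTR. The sites below are shown because they let the stretch in the targeted transcript be compared with those in genes that fell most clearly. Each is 30 bases of the canonical GENCODE transcript on GRCh38, written 5′ to 3′, with the heptamer in capitals. ESRRA is the coding site and the other sites lie in 3′ UTRs.
ESRRA: agcgagaggagtATGTTCTactaaaggcct
OTULIN: ttggagaggaatATGTTCTttatgtctcaa
UBE3C: gttttatgttgaATGTTCTatatcttatta
HDAC3: gaggatatgaaaATGTTCTgttctcacttt
BICC1: aagagagagaagATGTTCTtatgatgtcat
IDH1: tcactttttctcATGTTCTaattataaatg
KLHL21: taactcgtagagATGTTCTcagcaggaaga
SIVA1: ggtgccttttacATGTTCTattttgtatcc
SLC19A2: atggatggaaatATGTTCTaacagcatctg

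Position and exon of these sites were as follows. The capitals in ESRRA lie in exon 6 (chr11:64315235-64315241, forward strand). Those in OTULIN lie in exon 7 (chr5:14693360-14693366, forward), in UBE3C in exon 23 (chr7:157269189-157269195, forward), in HDAC3 in exon 15 (chr5:141620952-141620958, reverse) and in BICC1 in exon 21 (chr10:58829059-58829065, forward). Those in IDH1 lie in exon 10 (chr2:208236790-208236796, reverse), in KLHL21 in exon 4 (chr1:6592190-6592196, reverse), in SIVA1 in exon 4 (chr14:104759602-104759608, forward) and in SLC19A2 in exon 6 (chr1:169465409-169465415, reverse). In ESRRA, UBE3C, IDH1, SIVA1 and SLC19A2 the heptamer is followed by an A, and in the others by another base. None of 2545 human mature microRNAs in the RefSeq table has a seed that pairs with the heptamer over bases 2 to 8. Other pairings were not counted. How often other coding sequences hold the heptamer is not given here, and what acts through it was not tested.

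The heptamer was chosen as the lowest-ranked by these same fold changes, so that a lower median with it was fixed in advance. The values in this paragraph describe it and are no separate support. Of 12736 tested genes with a 3′ UTR of at least 50 bases, 2418 held the heptamer there, and so did 40.6% of the 784 lower DEGs and 17.1% of the 252 higher ones. The 10318 genes without it had a median log2 fold change of 0.03, and 4.52% were lower DEGs. The 1845 genes with 1 copy had a median of −0.08 and 12.3% lower DEGs, and the 446 genes with 2 copies a median of −0.18 and 15.5%. The 127 genes with 3 or more copies, with a median of −0.12 and 17.3%, did not extend the order of the medians. Within each of 4 equal classes of 3′ UTR length the genes with the heptamer were lower, from a median of −0.26 against 0.01 in the shortest class (50 to 570 bases) to −0.06 against 0.04 in the longest. The sequence of the siRNA is not given in the sources used here, and the part of the heptamer in the changes was not tested. The number of copies is given below for called genes whose 3′ UTR holds it. Among the genes without it, 466 lower and 209 higher DEGs remained.

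**Figure D2:**
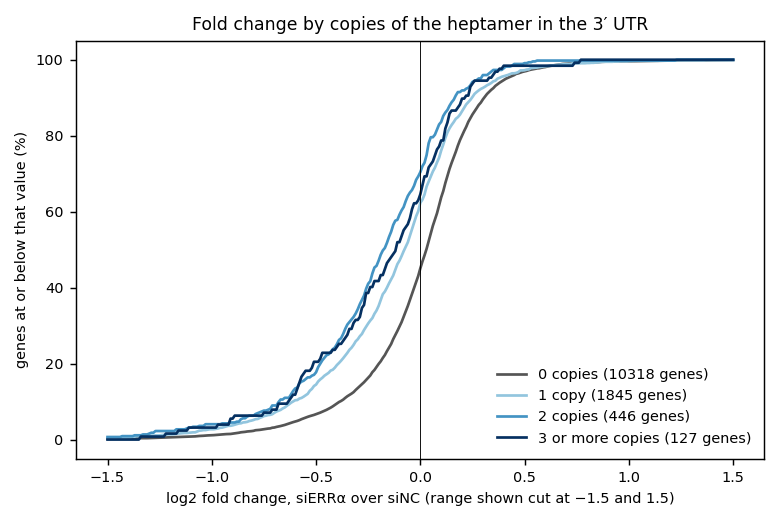
Cumulative share of genes (vertical axis, percent) at or below each log2 fold change of siERRα over siNC (horizontal axis), by the number of ATGTTCT copies that the canonical 3′ UTR holds. The curve of the 10318 genes with 0 copies lies to the right, with a median of 0.03, and those of genes with 1, 2 and 3 or more copies lie to its left, with medians of −0.08, −0.18 and −0.12. The heptamer was picked by these same fold changes, so a shift of the genes that hold it was fixed by that choice.

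The largest falls were spread over proteins of many kinds. COPRS, which binds PRMT5, an arginine methyltransferase, went from 33.0, 35.1 and 33.3 to 8.51, 8.65 and 8.85 CPM (log2 fold change −1.96, standard error 0.0752). The lowest siNC library lay above the highest siERRα library by more than 3 times, and its 3′ UTR holds no heptamer. GLUL, glutamine synthetase, went from 167, 165 and 164 to 73.7, 71.3 and 75.6 CPM (log2 fold change −1.17, adjusted p = 3.86e-11) and holds none either. DDX21, an RNA helicase of the nucleolus, fell by 1.07 on the log2 scale, from 198, 174 and 186 to 82.4, 99.7 and 83.8 CPM, also without the heptamer. AQP1, a water channel, went from 6.31, 7.02 and 5.92 to 2.16, 2.57 and 2.52 CPM (−1.41). LYSMD2 (−1.45) and TNFSF12, the TNF-family ligand TWEAK (−1.39), hold no copy, and neither does H3-3B, a gene of the replacement histone H3.3. H3-3B went from 713, 719 and 703 to 386, 415 and 410 CPM (−0.82), though its near-identical pseudogenes may share reads with it.

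Among genes with the heptamer, OTULIN, which removes linear ubiquitin chains, went from 167, 154 and 163 to 60.5, 65.5 and 62.4 CPM (−1.36, adjusted p = 1.20e-11, 1 copy). UBE3C, a ubiquitin ligase, went from 296, 295 and 297 to 127, 137 and 130 CPM (−1.17, 2 copies), and BICC1, an RNA-binding protein, from 89.3, 83.7 and 91.2 to 33.6, 37.3 and 34.4 CPM (−1.33, 1 copy). In each of the 3 the groups did not come near each other. SLC19A2, a thiamine transporter with 3 copies, fell by 1.34 on the log2 scale, ANKRD46 with 2 copies by 1.43, MPZL3 with 2 copies by 1.31 and SIPA1L3 with 1 copy by 1.38. In absolute terms the largest fall was that of YWHAZ, which encodes the adaptor protein 14-3-3 zeta and holds 2 copies, from 1211, 1125 and 1184 to 435.8, 508.8 and 447.3 CPM. XCL1, a chemokine gene with 1 copy, went from 1340, 1402 and 1324 to 822, 864 and 851 CPM (−0.68), and MSN, which encodes the membrane-cytoskeleton linker moesin and holds 1 copy, from 1107, 1137 and 1135 to 836, 803 and 825 CPM (−0.46).

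Fewer genes rose far. Most of those that did held no heptamer, which was also true of 10318 of the 12736 tested genes searched for it. MOBP, known from myelin, went from 1.21, 1.20 and 0.873 to 6.81, 6.86 and 6.67 CPM (log2 fold change 2.64). The other glial markers tested or filtered out did not accompany it, since MBP went from 50.5, 47.8 and 49.7 to 39.3, 44.6 and 37.5 CPM (−0.29) and SOX10 had 0 counts in all 6 libraries. HIC2, a transcriptional repressor, went from 4.52, 4.81 and 5.10 to 13.9, 12.1 and 12.7 CPM (1.42), and CPEB3, a regulator of poly(A) tails, from 5.68, 6.31 and 6.41 to 16.04, 14.3 and 15.2 CPM (1.31). ATP1B2, a beta subunit of the sodium pump, went from 18.2, 22.6 and 21.6 to 54.1, 48.6 and 46.2 CPM (1.26).

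ERLIN1, a protein of the endoplasmic reticulum, rose from 90.5, 83.6 and 85.3 to 166, 186 and 169 CPM (1.01, 1 copy). PSKH1, a serine kinase, rose by 0.97 on the log2 scale, LMBR1L by 0.97, HIPK2, a kinase that acts on transcription factors and holds 1 copy, by 0.95, and SLC22A5, the carnitine transporter, by 0.95. MAPT, the microtubule protein tau, rose from 5.28, 5.83 and 5.08 to 10.4, 10.1 and 10.7 CPM (0.95), and DHRS2, a mitochondrial reductase, by 1.05. Several of the largest rises in CPM were small in fold and lost the call with 1 library left out. PLAT, tissue plasminogen activator, had a log2 fold change of 0.19 (a call lost without S3 or S6), THBS1, thrombospondin 1, of 0.23 (lost without S2, S3 or S4) and CFL1, cofilin, of 0.23 (lost without S1, S3, S4 or S6). ANKRD52, a subunit of a protein phosphatase complex that acts on Argonaute, and KANK2, a regulator of actin at adhesions, were called in each of 17 alternatives. ANKRD52, which holds 2 copies of the heptamer, went from 184, 194 and 189 to 462, 418 and 447 CPM (1.23), and KANK2 from 616, 679 and 645 to 946, 908 and 951 CPM (0.53).

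**Figure D3:**
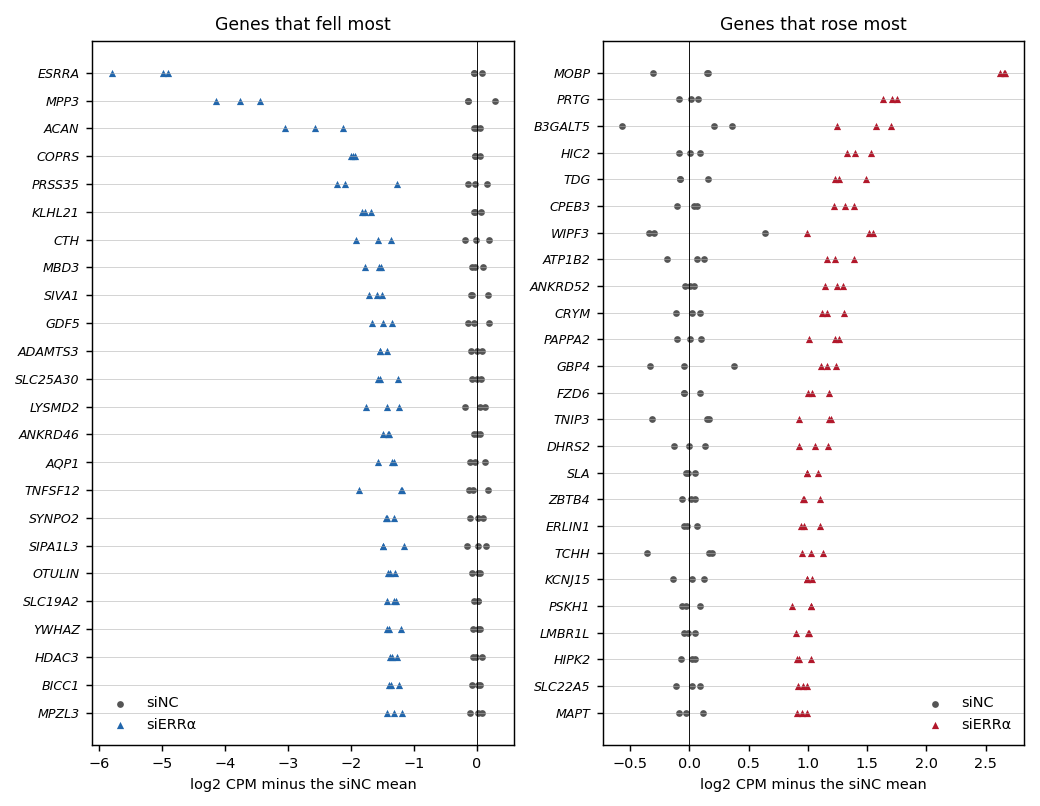
Level of 24 protein-coding DEGs from the 25 that fell most (left) and of the 25 that rose most (right) in each library, as log2 CPM minus the mean of the siNC libraries (horizontal axis), with siNC as grey circles and siERRα as coloured triangles. The genes had to average at least 1 CPM and to have groups that did not overlap. The siERRα points of COPRS, HDAC3 and MOBP lie close together, and the siNC points of B3GALT5 and WIPF3, genes under 1 CPM there, are spread.

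ERRα partners changed little. PPARGC1A, the coactivator PGC-1α (1 copy), was barely expressed (0.336, 0.662 and 0.576 against 0.671, 0.736 and 0.695 CPM, adjusted p = 0.474). PPARGC1B (2 copies) stood at 7.99, 9.47 and 9.81 CPM against 9.60, 8.84 and 8.65 CPM, with a log2 fold change of −0.01 (adjusted p = 0.968), whose sign turned when S2, S3, S5 or S6 was left out. PPRC1, another member of the family, was higher by 0.22 on the log2 scale (adjusted p = 0.0331), a call lost without S1, S3, S4, S6 or S18 (adjusted p = 0.0577 to 0.151). NRIP1, a corepressor of ERRα, stood at 101, 92.3 and 98.4 CPM against 104, 119.5 and 103 CPM (adjusted p = 0.0967). The steadiest rise was that of NCOA2, another coactivator gene, by 0.25 on the log2 scale (adjusted p = 0.00349). It went from 83.25, 78.4 and 81.3 to 95.4, 98.8 and 94.7 CPM and was called in each of 17 alternatives.

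Genes known as targets of ERRα were more often lower than the table as a whole, by modest amounts. Of 30 tested, 10 were lower (33.3%, against 12.6% of all genes) and 2 higher (6.67%, against 11.4%), with a median log2 fold change of −0.08. SUCLA2, a subunit of succinate-CoA ligase in the TCA cycle, went from 84.8, 78.0 and 81.2 to 48.1, 58.7 and 51.6 CPM (−0.62, adjusted p = 2.74e-06). SDHD, an anchor subunit of succinate dehydrogenase (complex II), went from 66.1, 66.3 and 66.2 to 42.3, 49.7 and 43.9 CPM (−0.55, adjusted p = 4.88e-05). SIRT3, the main deacetylase of mitochondria, went from 29.2, 33.0 and 29.6 to 22.1, 22.3 and 22.5 CPM (−0.46), and ATP5F1A, the alpha subunit of ATP synthase, by −0.35 with 1 copy of the heptamer. Groups were separate for each of the 4, as for 38.6% of all genes tested. The 9 lower members other than ATP5F1A hold no heptamer, and of all 30 tested members 23 hold none. The rises were those of NDUFB4 (0.30) and PDK4, an inhibitor of pyruvate dehydrogenase, at 0.403, 0.305 and 0.199 against 0.713, 0.968 and 0.849 CPM (1.49). The other 18 members, among them CYCS, CS and TFAM, did not pass the test.

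**Figure D4:**
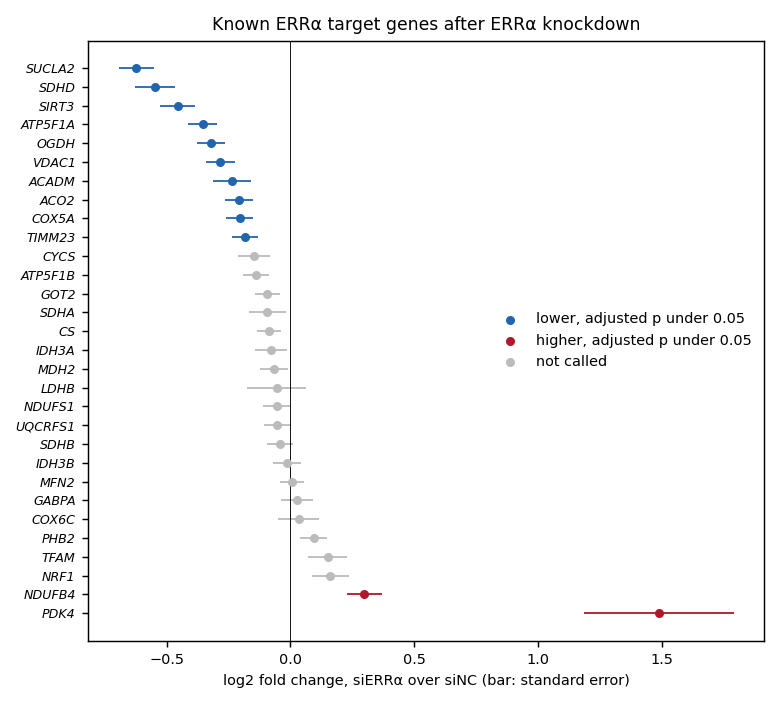
Log2 fold change (horizontal axis, siERRα over siNC) with its standard error for the 30 tested genes of a list of known ERRα targets, blue where lower and red where higher at an adjusted p under 0.05. Of these, 10 lie to the left in blue, from TIMM23 (−0.18) to SUCLA2 (−0.62), and NDUFB4 (0.30) and PDK4 (1.49) lie to the right.

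SDHD and CFDP1 are the lower DEGs with the smallest p whose promoter holds an ERR response element, and their promoters are shown for that reason. CFDP1, a gene of chromatin and chromosome structure, went from 52.5, 51.8 and 54.6 to 34.5, 37.3 and 33.0 CPM (−0.60, adjusted p = 1.72e-06). The element was searched as TNAAGGTCA, where N is any base, on both strands of RefSeq promoters (GRCh38.p14, 250 bases before and 50 after the start), and is in capitals. The SDHD promoter is chr11:112086623-112086922 (forward strand), with the element starting 11 bases after the start and read on the opposite strand, and that of CFDP1 is chr16:75433454-75433753 (reverse strand), with the element starting 188 bases before the start.
SDHD: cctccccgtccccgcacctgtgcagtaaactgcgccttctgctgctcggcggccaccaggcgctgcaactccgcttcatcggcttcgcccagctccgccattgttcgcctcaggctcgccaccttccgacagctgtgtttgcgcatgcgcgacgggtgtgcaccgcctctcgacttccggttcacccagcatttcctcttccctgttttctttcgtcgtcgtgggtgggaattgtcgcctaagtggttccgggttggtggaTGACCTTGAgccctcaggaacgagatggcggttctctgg
CFDP1: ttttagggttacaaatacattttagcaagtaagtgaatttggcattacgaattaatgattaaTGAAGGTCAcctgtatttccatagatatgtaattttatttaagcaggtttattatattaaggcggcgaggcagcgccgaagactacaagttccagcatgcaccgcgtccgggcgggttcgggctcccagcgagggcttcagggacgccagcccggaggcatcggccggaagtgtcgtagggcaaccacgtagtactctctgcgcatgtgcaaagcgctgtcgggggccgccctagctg

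The element was in 57 of 11277 tested genes with a promoter in the table (0.505%), in 5 of 636 lower DEGs (0.786%) and in 1 of 221 higher DEGs (0.452%), against 0.963% of all 27305 promoters in that table. Among all called genes it was in 10 of 1612 lower (0.62%) and 5 of 1533 higher ones (0.326%). NDUFB4, a known target that rose (0.30), is among the higher genes with the element. The median log2 fold change was −0.04 with the element and 0.01 without it. A match describes letters in a short window, and most of the lower DEGs had none there.

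The respiratory chain as a whole moved little. Of 36 complex I subunits 4 were lower and 1 higher, with NDUFAB1, also the acyl carrier protein of mitochondria, at 97.7, 93.0 and 93.0 against 68.8, 71.7 and 73.9 CPM (−0.40) and NDUFA2 at −0.39. These shares lie under those of all genes. Of 14 subunits of complexes II and III 3 were lower and 0 higher, with UQCRC2, a core protein of complex III, at 163, 164 and 157 against 106, 113 and 112 CPM (−0.54) beside SDHD. UQCR10 (−0.23, adjusted p = 0.0493) was the weakest of these, and its call was lost without any of S1, S2, S3, S4, S5, S16 or S18. Of 12 complex IV subunits 1 was lower, COX5A (−0.21), and of 18 ATP synthase subunits 4, of which ATP5PD, ATP5PF (1 copy) and ATP5F1C lost the call without S1 or S4. The 13 protein genes of the mitochondrial genome leaned the other way, with 5 higher and 0 lower and a median of 0.25. With edgeR 0 were lower at an unadjusted p under 0.05 too, and DESeq2 and limma-voom gave 0 lower. MT-ND1, a complex I subunit, stood at 180, 234 and 263 against 340, 330 and 296 CPM (0.51). The spread among siNC libraries was wide here, and the count of 5 became 1 without S1 or S4, 2 without S5, 3 without S2 or S18 and 9 without S3. Mitochondrial counts were 0.846% to 0.989% of all counts in siNC and 0.943% to 1.03% in siERRα.

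Around the chain, the TCA cycle and pyruvate dehydrogenase had 10 of 26 members lower (38.5%) and 3 higher (11.5%), with a median of −0.09. Beside SUCLA2 these include PDHB, a subunit of pyruvate dehydrogenase with 1 copy of the heptamer (−0.42), and OGDH, of the 2-oxoglutarate dehydrogenase complex (−0.32), while PDHX, which holds the pyruvate dehydrogenase complex together, rose from 54.2, 50.8 and 51.7 to 78.3, 87.5 and 77.2 CPM (0.63). IDH1, the cytosolic isocitrate dehydrogenase, is outside this list and was chosen for its place among the clearest heptamer genes. It went from 65.2, 63.2 and 65.2 to 27.0, 28.2 and 26.8 CPM (−1.24, 1 copy). Mitochondrial carriers, which move metabolites through the inner membrane, had 11 of 35 lower (31.4%) and 1 higher. SLC25A15, an ornithine carrier, went from 13.7, 11.3 and 13.6 to 8.07, 8.27 and 7.88 CPM (−0.67), SLC25A43 fell by 0.55 on the log2 scale and SLC25A30, with 1 copy, by 1.45. TOMM20, a receptor of protein import with 1 copy, went from 336, 309 and 327 to 160, 185 and 166 CPM (−0.93), and GRPEL1, of the import motor, fell by 0.61. Import genes had 5 of 26 lower and 2 higher, with 3 lower without S1 or S4. The heptamer is held by 2 of these 5 lower import genes and by 6 of all 26 tested. The mitochondrial ribosome had 8 of 76 lower and 3 higher (5 lower without S4), with MRPL9 (1 copy) at 37.8, 38.9 and 37.95 against 19.5, 19.2 and 19.6 CPM.

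Genes of fatty acid synthesis were more often lower than higher, and those of cholesterol synthesis were mostly not called. Of 18 genes of fatty acid synthesis and desaturation, 10 were lower (55.6%) and 2 higher, with a median of −0.19. ACLY, which makes cytosolic acetyl-CoA from citrate, went from 266, 274 and 270 to 168, 166 and 169 CPM (−0.69, 2 copies). The elongases ELOVL7 (−1.28, no copy), ELOVL2 (−0.53, 1 copy) and ELOVL4 (−0.49, no copy) fell, with ELOVL7 at a low level, 2.17, 2.04 and 1.85 against 0.734, 0.842 and 0.926 CPM. The smaller falls were sensitive to the libraries, and the count of 10 became 5 without S1 or S6 and 6 without S3 or S4. Fatty acid oxidation was mixed, with 5 of 22 lower and 4 higher and a median of −0.01. The acyl-CoA synthetases ACSL3 (−0.67) and ACSL1 (−0.63), with 2 copies each, fell, while CPT1A, which admits fatty acids to mitochondria, rose from 50.2, 47.0 and 50.6 to 63.0, 70.1 and 61.6 CPM (0.40). Cholesterol synthesis and uptake had 1 of 25 lower and 3 higher, fewer than its share of all genes in the lower direction.

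Glycolysis and glucose transport had 3 of 24 members lower and 3 higher, close to the shares of all genes. PGAM1, phosphoglycerate mutase, went from 220, 245 and 217 to 128, 132 and 135 CPM (−0.79, 1 copy), and SLC16A3, a lactate exporter, from 11.0, 12.5 and 11.7 to 7.27, 6.38 and 6.69 CPM (−0.79). In sulfur metabolism, CTH, which makes cysteine from cystathionine, went from 4.005, 3.08 and 3.45 to 0.922, 1.18 and 1.36 CPM (−1.61, 2 copies), while SLC7A11, which imports cystine, rose from 30.5, 23.8 and 25.4 to 48.7, 52.1 and 41.2 CPM (0.83, 1 copy). MAT2A, which makes S-adenosylmethionine, rose by 0.41 and GLDC, of the glycine cleavage system, by 0.71. FLVCR1, a heme exporter with 2 copies, fell by 0.91. Of 26 targets of NRF2, the factor of the antioxidant response, 9 were higher (34.6%) and 2 lower, with a median of 0.14, among them OSGIN1 (0.63), which stood at 19.6, 19.7 and 18.1 against 34.1, 27.2 and 27.1 CPM.

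The list of mitosis genes, chosen like the others with earlier results of these data known, held higher members and no lower ones. Of 49 tested, 20 were higher (40.8%, against 11.4% of all genes) and 0 lower, with a median log2 fold change of 0.19. KIF20A, a kinesin of cytokinesis, went from 166, 173 and 170 to 241, 247 and 244 CPM (0.53, adjusted p = 9.25e-07). MAD2L1, of the spindle checkpoint, rose by 0.40 (1 copy), BIRC5, survivin, by 0.32 and CCNA2, cyclin A2, from 146, 142 and 146 to 170, 188 and 174 CPM (0.30). The groups were separate for these 4, as for 38.6% of all genes tested. CDCA8, borealin, a mitotic gene outside the list, fell from 139, 156 and 144 to 75.6, 72.3 and 77.3 CPM (−0.96, 1 copy). The median member, as log2 level minus its siNC mean, was at 0.0044, −0.038 and 0.024 in siNC and at 0.15, 0.26 and 0.13 in siERRα, highest in S5. Most members moved by under 0.3, and the count of 20 became 13 without S1 and 12 without S3. The count of 0 lower was that of edgeR, with 0 at an unadjusted p under 0.05. DESeq2 and limma-voom also gave 0, from the same counts and the same list.

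The rest of the cell cycle did not follow one direction. DNA replication genes had 6 of 36 lower (3 without S4) and 4 higher, with GINS1, of the replicative helicase, at 77.8, 76.0 and 78.6 against 46.6, 52.95 and 47.97 CPM (−0.66). UHRF1, which guides maintenance of DNA methylation, went from 119, 123 and 124 to 76.6, 73.7 and 76.0 CPM (−0.69). G1 cyclins, CDKs and their inhibitors had 6 of 21 lower and 6 higher, with the cyclin gene CCNE2 at 29.3, 27.6 and 30.5 against 47.5, 56.7 and 53.9 CPM (0.85) and RBL2, a relative of RB1, at −0.51. Targets of p53 had 7 of 28 lower and 6 higher, and 3 of the 7 lower ones hold the heptamer, as do 9 of all 28. SIVA1, a pro-apoptotic protein, led the falls (99.5, 120 and 101 against 35.5, 32.7 and 37.7 CPM, 1 copy), before PHLDA3, an inhibitor of AKT (−0.98, no copy). Of the BCL2 family, BCL2L11, the death protein BIM, rose by 0.47 and BMF (2 copies) fell by 0.58. In DNA repair, TDG, a glycosylase of base excision repair, stood out at 24.8, 21.1 and 21.04 against 52.3, 62.4 and 53.4 CPM (1.33), and DCLRE1C, the end-joining nuclease Artemis, rose by 0.62. Base excision repair had 0 of 21 lower and 3 higher with edgeR, 1 lower at an unadjusted p under 0.05, and 0 lower with DESeq2 and with limma-voom.

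Signals at the cell surface were lower in several families. Growth factor ligands had 11 of 29 lower (37.9%, against 12.6% of all genes) and 1 higher (3.45%, against 11.4%), with a median of −0.20. Of these 11 lower ones 10 hold no heptamer, and of all 29 tested members 19 hold none. HBEGF, a ligand of the EGF receptor, went from 26.6, 25.7 and 26.7 to 14.7, 16.7 and 14.5 CPM (−0.78), GDF5 fell by 1.51 and GDF7 by 0.45. Components of JAK-STAT signaling had 12 of 34 lower (35.3%) and 1 higher, though 7, 6 and 7 without S4, S1 and S2. OSMR, the receptor of oncostatin M, went from 33.0, 30.5 and 30.3 to 14.7, 16.7 and 14.5 CPM (−1.03, no copy), and IL6ST, its shared partner gp130, from 518, 468 and 506 to 284, 349 and 296 CPM (−0.68, 3 copies). STAT4 fell by 0.59, and SOCS7 rose by 0.50. Receptor tyrosine kinases had 12 of 34 lower (35.3%) and 6 higher. FLT1, a receptor of vascular growth factors, went from 561, 506 and 545 to 363, 395 and 336 CPM (−0.56) and its relative FLT4 fell by 0.65 (1 copy), while EPHA4 rose by 0.45 (1 copy).

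Inside the cell, 3 of 6 tested 14-3-3 genes were lower and 1 higher. YWHAB went from 578, 558 and 571 to 298, 332 and 304 CPM (−0.87, 1 copy), YWHAE fell by 0.27 without a copy, and YWHAG rose by 0.20 with 1 copy. Hippo components had 9 of 26 lower (34.6%) and 3 higher, and 13 of the 26 hold the heptamer. LATS2, a core kinase, stood at 134, 135 and 141 against 78.5, 73.4 and 71.9 CPM (−0.87, 1 copy), TEAD1, the DNA-binding partner of YAP, at −0.75 (3 copies) and MOB1A at −0.75 (1 copy). Among members without the heptamer 3 were lower and 3 higher, with a median of 0.04. Stress kinases had 7 of 28 lower (4 without S4) and 6 higher. Of the 7 lower ones 4 hold the heptamer, as do 6 of all 28. The MAP kinase kinase kinases MAP3K11 (137, 158 and 149 against 265, 225 and 254 CPM, 0.74) and MAP3K9 (0.73) rose with MAPKAPK2, a substrate of p38 (265, 277 and 266 against 393, 374 and 397 CPM, 0.53). DUSP7, a phosphatase of ERK, fell by 0.95, NRAS, with 4 copies, by 1.16, and IRS1, an adaptor of the insulin receptor (1 copy), by 0.53. Of 21 AP-1 and immediate early genes 5 were lower and 1 higher, with ATF3 at 32.9, 32.4 and 32.6 against 19.3, 21.1 and 20.6 CPM (−0.68), JUN at −0.55 and MYC at −0.51. Notch components had 6 of 31 lower and 6 higher, with NOTCH2 (2 copies) at −0.55 against the coactivator MAML1 at 0.57 and the sheddase ADAM17 at 0.52, and Hedgehog components 3 of 16 each way, with the receptor PTCH1 at 0.51.

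Chromatin regulators rose more often than they fell, around a few deep falls. MBD3, of the NuRD complex, went from 78.1, 88.1 and 80.7 to 28.2, 24.1 and 28.7 CPM (−1.61, no copy), while its partner GATAD2A rose by 0.46. HDAC3, a histone deacetylase that works with nuclear receptor corepressors, went from 74.6, 79.9 and 72.5 to 29.8, 29.2 and 31.5 CPM (−1.33, 1 copy), while HDAC4 rose by 0.54. Lysine methyltransferases and demethylases had 11 of 40 higher (27.5%) and 4 lower, with a median of 0.16. KDM6B, a demethylase of H3K27, stood at 20, 20.9 and 21.5 against 41.2, 35.5 and 35.0 CPM (0.84), KMT5A at 0.44 and KDM2A at 0.43, while SMYD2 fell by 0.59 (1 copy). With no filter on low counts 17 of the 40 were higher. Polycomb complexes had 10 of 30 higher (33.3%) and 3 lower, with the chromobox genes CBX6 (0.58) and CBX2 (0.41) higher and PHC2 lower (−0.52). That count was unsteady, at 4 higher without S4 or S1 and 3 without S3. SWI/SNF complexes had 7 of 25 higher (28.0%, and 4 without S5 or S3) and 1 lower. SMARCD2 went from 114, 120 and 113 to 183, 179 and 188 CPM (0.67), with no overlap, and BCL7A rose by 0.68.

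In RNA metabolism, the genes through which small RNAs act moved in both directions. AGO2, the Argonaute that cuts, went from 249, 248 and 249 to 360, 352 and 353 CPM (0.51, adjusted p = 9.58e-07, 2 copies). TNRC6A, which links Argonautes to mRNA decay, went from 63.8, 60.6 and 60.7 to 37.7, 38.9 and 35.7 CPM (−0.72, 2 copies), AGO1 (1 copy) fell by 0.22, and AGO3 (2 copies) fell by 0.22, a call lost without S1, S3, S4 or S6. Genes of mRNA deadenylation and decay had 11 of 40 higher (27.5%) and 7 lower. Of the 7 lower ones 3 hold the heptamer, as do 10 of all 40. Beside CPEB3, the deadenylase subunit genes CNOT6 (94.4, 85.0 and 91.6 against 128, 147 and 130 CPM, 0.58) and CNOT9 (0.39) rose. Splicing factors had 7 of 43 each way (16.3%, against 12.6% lower and 11.4% higher of all genes). Of the 7 lower ones 3 hold the heptamer, as do 10 of all 43. SF3B2, of the U2 particle, went from 441, 459 and 458 to 263, 254 and 258 CPM (−0.81, 1 copy), and the splicing proteins SRSF9 (−0.72) and SRSF10 (−0.52, 4 copies) fell while MBNL1 rose by 0.45.

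In translation, PABPC4, a poly(A)-binding protein, went from 242, 251 and 246 to 131, 131 and 127 CPM (−0.92, 1 copy). Ribosome biogenesis had 10 of 38 higher (26.3%) and DDX21 as its lower gene. PES1, of the large subunit pathway, rose from 116, 127 and 118 to 164, 153 and 171 CPM (0.43), and NOLC1 by 0.28, but the count of 10 became 5, 6 and 4 without S1, S2 and S3. Cytosolic ribosomal proteins were mostly not called, with 5 of 77 lower and 2 higher and a median of 0.00221. The 5 lower became 8 without S5, 3 without S2 and 9 without S17. RPL26 had a log2 fold change of −0.66, though ribosomal protein genes share sequence with many pseudogenes and such values are uncertain. The proteasome had 6 of 40 higher (3 without S6) and 0 lower with edgeR, 0 lower with DESeq2 and with limma-voom, and 2 lower at an unadjusted p under 0.05.

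Protein folding in the endoplasmic reticulum gave a divided picture. Of 30 genes of the unfolded protein response, 15 were higher (50.0%, against 11.4% of all genes) and 4 lower, with a median of 0.17. The median member stood at 0.16, 0.19 and 0.15 in siERRα and between −0.025 and 0.017 in siNC, on the log2 scale relative to the siNC mean. The genes that rose include SYVN1 (0.43) and DERL1 (0.36), which remove misfolded proteins, the transcription factor gene CREB3L2 (172, 168 and 171 against 240, 247 and 228 CPM, 0.48) and the lectin chaperone gene CANX (2188, 2045 and 2208 against 2435, 2810 and 2447 CPM, 0.26). HSPA5, the main chaperone of this compartment, went the other way, from 1737, 1641 and 1692 to 1041, 1150 and 1044 CPM (−0.65, adjusted p = 5.01e-08), and it holds 1 copy of the heptamer. Heat shock chaperones had 5 of 35 lower (14.3%, close to the 12.6% of all genes) and 2 higher (5.71%, against 11.4%). HSPA6 stood at 63.3, 62.1 and 61.3 against 26.9, 30.3 and 28.3 CPM (−1.13) and HSPA1B at −0.82, whose near-identical copy HSPA1A may share its reads. Autophagy genes had 10 of 36 higher (5 without S3) and 4 lower, with ATG9A at 0.31 and TFEB, a master factor of lysosomes, at −0.56. Vesicle transport genes had 12 of 49 higher (7 without S3) and 6 lower, with RAB11FIP1 at 0.55 and RAB22A (1 copy) at −0.76.

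Genes of antigen processing rose more often than not. Of 19 genes of MHC class I and antigen processing, 10 were higher (52.6%) and 3 lower, with a median of 0.20. The peptide-handling genes rose, among them the immunoproteasome gene PSMB9 (10.5, 13.4 and 11.8 against 17.02, 15.3 and 18.6 CPM, 0.52), the transporter gene TAP2 (8.52, 8.04 and 8.73 against 11.9, 11.8 and 12.2 CPM, 0.50) and the trimming enzyme gene ERAP2 (0.31). HLA-B (−0.27) and HLA-C (−0.21) were among the lower members, and as near-identical, polymorphic genes they are uncertain. Without S1 the count of 10 became 6. Interferon-stimulated genes had 11 of 50 lower (22.0%) and 7 higher (4 without S3). Of the 7 members with the heptamer 5 were lower, and of the 43 without it 6 were lower and 6 higher. UBE2L6, an enzyme of ISG15 transfer, went from 100.5, 109 and 102 to 63.7, 56.9 and 67.2 CPM (−0.73, 2 copies), IFITM2 fell by 0.68 and GBP1 by 0.54 (1 copy), while GBP4 rose by 1.14 (1 copy). Of 20 sensors of double-stranded RNA and of DNA, 1 was lower, OAS2 (1.01, 0.967 and 1.05 against 0.335, 0.400 and 0.206 CPM, 1 copy), and ADAR rose by 0.38. TNFSF10, the death ligand TRAIL, went from 218, 216 and 226 to 322, 387 and 347 CPM (0.68), while TNFSF4 (−0.88, 2 copies) and the chemokine gene CXCL12 (−0.58) fell. NFKBIZ, an NF-κB cofactor, rose by 0.64.

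Among genes of the membrane and the matrix, potassium channels and proteoglycans were more often lower than higher, and sodium pumps and transporters moved both ways. Potassium channels and their subunits had 12 of 33 lower (36.4%, and 7 without S3) and 2 higher, with a median of −0.42. KCNMA1, the large-conductance channel of smooth muscle, went from 12.1, 11.6 and 11.6 to 5.91, 6.31 and 5.997 CPM (−0.95), KCNJ8, the pore of a channel gated by ATP, from 37.6, 37.9 and 34.6 to 23.5, 24.3 and 22.4 CPM (−0.65), and KCNN2 fell by 0.74. KCNJ15 (1 copy) rose by 1.00. Of 21 sodium pumps and transporters 7 were higher (33.3%) and 4 lower, with SLC9A5, a sodium-proton exchanger, at 0.65 beside ATP1B2. Of 18 MAGUK scaffolds, which organise membrane proteins, 3 were higher (16.7%, against 11.4% of all genes) and 1 lower (5.56%, against 12.6%). Calcium channels and handling had 7 of 38 lower and 3 higher, with CACNA1G, a T-type channel, at −0.68. The heptamer is held by 4 of these 7 lower members and by 8 of all 38. Proteoglycans and aggrecanases had 14 of 39 lower (35.9%) and 1 higher, with a median of −0.27. Of the 14 lower ones 11 hold no heptamer, and of all 39 tested members 31 hold none. ACAN, aggrecan, went from 5.33, 5.09 and 4.94 to 0.860, 1.18 and 0.618 CPM (−2.51), SPOCK2 fell by 1.20 and SDC4 by 0.82. Amino acid transporters had 7 of 23 each way. Of the 7 lower ones 5 hold the heptamer, as do 8 of all 23. Among the 5 are SLC1A5, a glutamine carrier (596, 640 and 595 against 379, 354 and 391 CPM, −0.70, 1 copy), and SLC7A6 (−0.70, 1 copy). The count of 7 higher became 4 without S4 and 3 without S3.

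No gene of GIST identity was called lower. Of 18 tested genes of GIST and of interstitial cells of Cajal, the pacemaker cells from which GIST is thought to arise, 5 were higher (27.8%) and 0 lower, with a median of 0.11 (edgeR). At an unadjusted p under 0.05, and with DESeq2 and limma-voom, 0 were lower as well. The transcription factors ETV1 (243, 244 and 255 against 290, 320 and 296 CPM, 0.29) and FOXF1 (0.27) and the receptor PDGFRA (128, 127 and 137 against 166, 189 and 174 CPM, 0.43) were among the 5. Of 8 smooth muscle markers tested, 5 were lower and 0 higher with edgeR (0 at an unadjusted p under 0.05, and 0 with DESeq2 and limma-voom), and their summed level was 536 to 554 CPM of the raw total in siNC and 333 to 362 in siERRα. SYNPO2 (1 copy) went from 13.2, 12.5 and 11.5 to 4.63, 4.96 and 4.58 CPM (−1.39), and ACTG2 fell by 0.66. In bulk RNA, fewer cells of a kind and less RNA per cell cannot be told apart. Of 30 other nuclear receptors tested, 7 were lower (4 without S3) and 5 higher. The low-level genes PPARG (1.81, 1.76 and 1.65 against 0.860, 1.09 and 0.721 CPM, −0.95) and VDR (−0.79) fell with NR1H2 (−0.42), and THRA rose by 0.40. The clock gene CRY2 rose from 55.8, 61.5 and 56.0 to 92.1, 84.7 and 88.2 CPM (0.61). HOX genes had 6 of 28 higher (3 without S1) and 3 lower, with HOXC10 at 0.43 and HOXB9 at −0.61. ERG, an endothelial transcription factor gene that these cells also express, rose by 0.62 (1 copy), while CDH5 stayed under 1 CPM in each library.

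**Figure D5:**
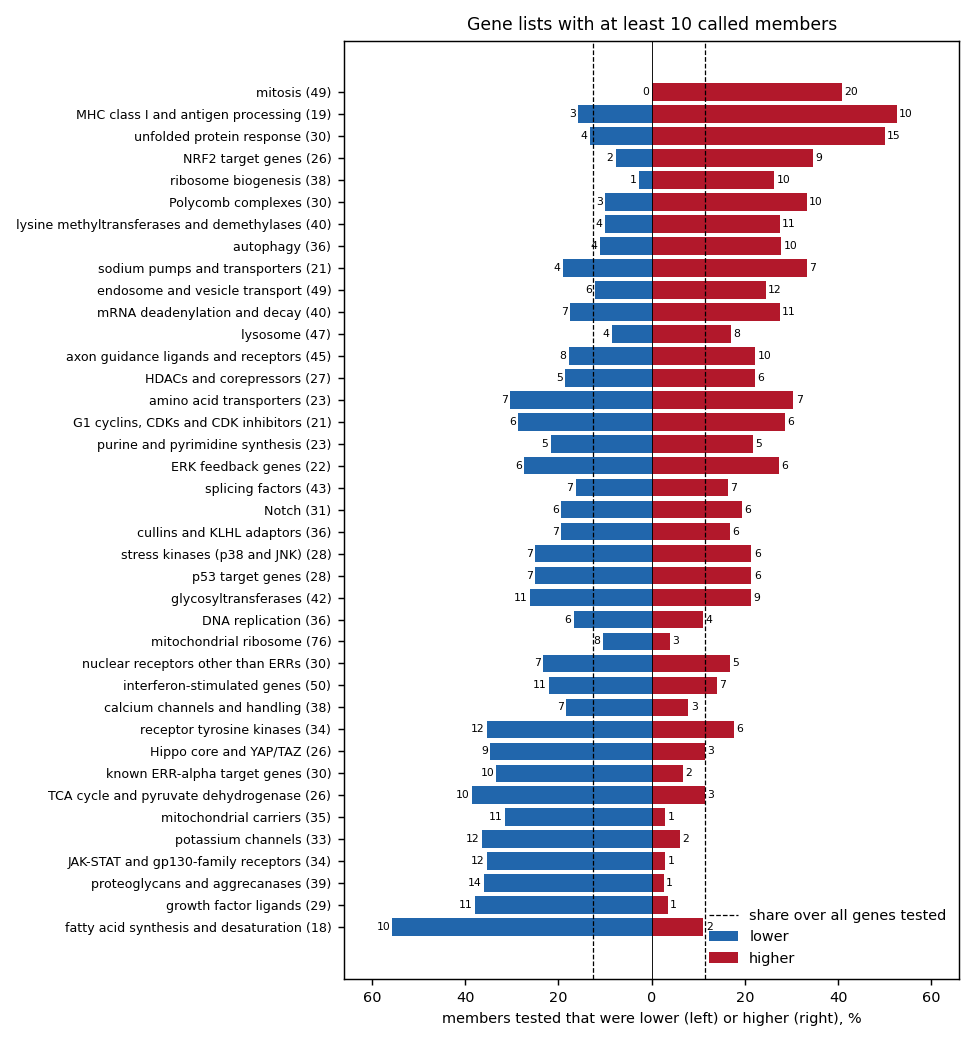
Percent of each list's tested genes (their number follows the list name) called lower, drawn to the left in blue, or higher, drawn to the right in red, after ERRα knockdown, for 39 lists with at least 10 called members, where the figure beside a bar is its count. The dashed lines mark the shares over all genes, 12.6% and 11.4%. Mitosis has 20 members to the right and 0 to the left, and fatty acid synthesis 10 to the left and 2 to the right.

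The 88 lists together held 2270 tested genes, of which 377 were lower and 368 higher, and 1027 of the 1233 DEGs were in no list. Lists with more members lower numbered 37, as did those with more members higher. Among the lists not described above, those of the circadian clock (1 of 22 lower, 3 higher), translation factors (3 of 44 lower, 4 higher), tRNA synthetases (0 of 20 lower with edgeR, also at an unadjusted p under 0.05 and with DESeq2 and limma-voom, and 3 higher) and homologous recombination (3 of 33 lower, 2 higher) had few called members. Those of glycosyltransferases (11 of 42 lower, 9 higher), axon guidance (8 of 45 lower, 10 higher) and endolysosomal enzymes (4 of 47 lower, 8 higher) moved both ways. Of the 11 lower glycosyltransferases 7 hold the heptamer, as do 11 of all 42 tested.

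Several of these groups took another course with imatinib. The comparisons with siNC share the siNC libraries, so the values are given side by side only, and the libraries of knockdown and of drug were then tested directly. With imatinib 20.3% of genes were lower and 21.4% higher than in siNC, and between knockdown and imatinib 26.6% were lower and 25.6% higher in knockdown. Mitosis had 18 members lower and 6 higher with imatinib, and 30 of 49 members were higher in knockdown than with the drug. KIF20A had a log2 fold change of −0.45 with imatinib against 0.53 after knockdown. Ribosome biogenesis had 35 of 38 members lower with imatinib, and 35 were higher in knockdown than with the drug. Proteasome genes had 34 of 40 lower with imatinib, and 33 were higher in knockdown. In fatty acid synthesis 4 members were lower and 9 higher with imatinib, and 12 of 18 were lower in knockdown than with the drug. Proteoglycans and aggrecanases had 24 of 39 higher with imatinib, and 29 were lower in knockdown. Of the smooth muscle markers 5 of 8 were higher with imatinib, and 7 were lower in knockdown. Of 21 AP-1 and immediate early genes, 14 were lower with imatinib and 5 after knockdown, and 15 were higher in knockdown than with the drug, with ATF3 at −2.50 and −0.68.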

How the data were processed

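RNA was polyadenylated RNA from 9 libraries, read in pairs. STAR 2.7.3a, featureCounts 2.0.1 and GRCh38 are the tools and build in the submitters' notes. The deposited table holds raw read counts per gene, which the authors had not normalized. From these counts edgeR 4.0.16 (R 4.3.3) was run with TMM factors, filterByExpr (minimum count 10, minimum total 15) and robust quasi-likelihood fits over all 9 libraries. The contrast was siERRα minus siNC, two-sided, with Benjamini-Hochberg adjustment over 16976 genes. Reads that fall on near-identical genes were assigned by the authors' counting. Standard errors come from that fit and include the spread between libraries, and the floor of 3 counts covers counting error only. Gene models came from GENCODE 44, sequences of sites from its canonical transcripts and promoters and microRNAs from RefSeq. Named genes were ESRRA, its paralogs and partners, the 25 lowest and 25 highest log2 fold changes among protein-coding DEGs averaging 1 CPM or more whose groups were separate, the 10 called protein-coding genes with the largest fall and the 10 with the largest rise in CPM, the 10 with the smallest p, and up to 4 called genes with the smallest p per list (every member of lists of at most 8). CFDP1, IDH1, NDUFB4, PDK4, OGDH, TIMM23, CDCA8, SLC9A5 and others outside it were chosen after their values were seen. The members and the 88 lists were chosen with earlier results of these data known. The fit was tested on simulated data. Alternatives were DESeq2 1.42.0, limma-voom 3.58.1, other filters and scaling, thinned counts, a replicate block and each library left out. Same-numbered libraries did not deviate together (correlations −0.0496, −0.0996 and −0.00815), so no pairing was used. A few results are not reported here.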

Additional observations from a re-analysis of the deposited data

How the results depend on the processing

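Of 354 named genes called after knockdown, 317 were called in each alternative that tested them (17, or 16 for MPP3 and OAS2) and 37 lost the call in at least 1. Leaving out 1 library at a time gave 1739 to 2383 genes lower, 1163 to 2018 higher, 822 to 947 lower DEGs and 268 to 384 higher DEGs, with the 1163 found without S3. A threshold of 1 on the log2 scale left 199 lower and 76 higher DEGs. With the column number as a replicate block 1993 genes were lower and 1659 higher, with 881 and 318 DEGs. The ESRRA log2 fold change was −5.36 to −4.94 with 1 library left out. The sign turned for the PPARGC1B log2 fold change (−0.0936 to 0.0412 with 1 library left out), the CDH5 log2 fold change (−0.0949 to 0.225 with 1 left out, −0.0219 thinned) and the VWF log2 fold change (−0.17 to 0.128 with 1 left out), none of which was called. Of 3168 list counts, 304 moved by over 1.5 times, and the cause was not tested. With 3 libraries a group, small changes were the least steady.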
